A study of Mus musculus with 2 samples.

Results

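Cxcl1, Cxcl2, Cxcl9, Cxcl10 and Cxcl16 were read in both libraries of this study as the rows that carry these symbols, 5 of 32589 features. They belong to the CXC chemokines, small secreted proteins that direct the movement of leukocytes. The study profiled single cells from mouse prefrontal cortex. C57BL/6 animals were gavaged with corticosterone, the chief rodent glucocorticoid, as a model of depression with raised glucocorticoid, or with vehicle. Cells with low CD45 and with CD11b on their surface, the usual gate for microglia, were sorted after enzymatic digestion at body temperature. There was 1 library for vehicle and 1 for corticosterone. Both groups are given as C57BL/6 with no other allele, and the number of animals, their sex and age, the dose and the duration are not given in the sources used here. The deposited files name these libraries wild type and depression, and each was assigned to its group by the sample record that lists it.

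CXC chemokines fall into sets by receptor. Cxcl1 and Cxcl2 bind Cxcr2 and draw neutrophils. Their genes respond to NF-kB, the factor switched on by interleukin-1, tumour necrosis factor and Toll-like receptors, and their mRNAs decay fast. Cxcl9 and Cxcl10 bind Cxcr3 on activated T cells and NK cells and are induced by interferons, Cxcl9 mainly by interferon-gamma and Cxcl10 also by type I interferons. Cxcl16 is made as a membrane protein on macrophages and other cells, binds Cxcr6, and is released when ADAM proteases cut it.

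The gene positions follow these sets. In GRCm38, the build named in the submitters' processing notes, Cxcl1 lies at chr5:90891241-90893115 and Cxcl2 at chr5:90903871-90905938, both on the plus strand with 10755 bases between them. Cxcl9 at chr5:92321347-92328079 and Cxcl10 at chr5:92346638-92348889 lie on the minus strand of the same chromosome, 18558 bases apart and 1415408 bases beyond Cxcl2. Cxcl16 stands alone at chr11:70453983-70459984 on the minus strand. Each has 4 exons, except Cxcl16 with 5. Cxcl1 and Cxcl2 are related copies, and how reads that match more than 1 copy were counted is not given in the sources used here.

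Promoters show which of these genes carry the letters of the factors named above. RefSeq promoters (GRCm38.p6) matched 4 of the 5 members, and the 250 bases before the start were searched on both strands for the NF-kB consensus, for the interferon-stimulated response element as GAAA, any 2 bases and GAAA, for the gamma-activated site as TTCNNNGAA and for AP-1 as TGANTCA. Of 32851 promoters of the same length, 7.25% held the NF-kB consensus, 2.98% the interferon-stimulated element, 7.02% the gamma-activated site and 6.75% the AP-1 letters. Shown 5′ to 3′ on the strand of the gene are the pair that share a motif, Cxcl1 (chr5:90890995-90891244, plus strand) and Cxcl2 (chr5:90903649-90903898, plus strand), and the member with motifs of several factors, Cxcl10 (chr5:92348890-92349139, minus strand). Capitals mark the matches. The start is that of RefSeq, which for Cxcl1 and Cxcl2 lies downstream of the gene start given above.
Cxcl1: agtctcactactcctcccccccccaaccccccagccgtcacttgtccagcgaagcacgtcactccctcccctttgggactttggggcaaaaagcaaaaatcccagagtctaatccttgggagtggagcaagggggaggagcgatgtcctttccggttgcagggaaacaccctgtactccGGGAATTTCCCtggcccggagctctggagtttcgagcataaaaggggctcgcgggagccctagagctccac
Cxcl2: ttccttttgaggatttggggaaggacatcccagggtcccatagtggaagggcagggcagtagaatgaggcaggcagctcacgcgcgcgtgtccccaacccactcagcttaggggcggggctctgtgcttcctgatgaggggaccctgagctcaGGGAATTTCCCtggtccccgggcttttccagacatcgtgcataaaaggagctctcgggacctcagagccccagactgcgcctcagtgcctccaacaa
Cxcl10: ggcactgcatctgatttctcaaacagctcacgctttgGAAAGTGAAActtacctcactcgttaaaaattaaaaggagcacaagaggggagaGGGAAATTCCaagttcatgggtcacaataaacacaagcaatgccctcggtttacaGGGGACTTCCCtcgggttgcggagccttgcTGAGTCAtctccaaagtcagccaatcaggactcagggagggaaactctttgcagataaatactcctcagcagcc
Cxcl1 and Cxcl2 both hold GGGAATTTCCC, which contains 2 overlapping NF-kB matches, starting 71 and 97 bases before the start. Cxcl10 holds NF-kB matches that start 159 and 104 bases before the start (the latter overlaps another at 103), the interferon-stimulated element GAAAGTGAAA at 213 and the AP-1 letters TGAGTCA at 74. None of the 4 motifs was found in these 250 bases of Cxcl9. A match describes the letters and not binding.

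The members also differ in the ATTTA pentamer, the core of the AU-rich elements through which unstable mRNAs are recognised. In the GENCODE M21 annotation of GRCm38, the 3′ untranslated region of Cxcl1 holds 7 in 592 bases and that of Cxcl2 holds 11 in 1494 bases. A density at least as high was found in 0.782% and 2.87% of 20979 genes. Cxcl9 holds 3 in 2452 bases, Cxcl10 holds 3 in 996 and Cxcl16 holds 2 in 1421. The longer form TTATTTATT occurred 2 times in Cxcl1 and 4 times in Cxcl2, was absent from the other members' regions, and was found at least 1 time in 7.60% of genes.

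After filtering, the vehicle library held 10500 cells and 49325067 UMIs (molecular tags, each counting 1 captured transcript), with a median of 3220.5 per cell, and the corticosterone library held 17883 cells and 85103539 UMIs, with a median of 3961. The median mitochondrial share was 2.67% in vehicle and 4.201% in corticosterone; its part in the differences below was not tested. Clusters were named from markers, with all CXC ligands and receptors kept out of the genes that formed them. Microglia-like cells were 7925 in vehicle and 15253 in corticosterone. Border-associated macrophage-like cells, resembling the macrophages of the meninges and vessels, numbered 1036 and 795, and neutrophil-like cells 444 and 397. The libraries stood apart: 7159 of the vehicle microglia-like cells were in cluster 1, which held 206 from corticosterone, and 10092 of those from corticosterone were in cluster 0, which held 196 from vehicle. Group and library, with any batch of isolation or preparation, cannot be told apart, and no p-value was computed. Intervals are at the 95% level and cover counting error only. The libraries shared 104 of 28668 cell barcodes. Microglia markers were also found in barcodes of other classes. Levels of 4 of them (Sall1, P2ry12, Tmem119 and Siglech) were set against those in microglia-like cells. The median ratio was 0.785 in vehicle and 0.868 in corticosterone in erythroid cell-like barcodes. It was 0.550 and 0.349 in neutrophil-like cells, and 0.817 and 0.653 in border-associated macrophage-like cells. Whether free RNA, doublets or expression in these cells gave these levels was not tested. Erythroid cell-like barcodes are thus no blank for microglial transcripts, and a value at their level does not show a lack of expression in microglia-like cells.

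Cxcl2, Cxcl10 and Cxcl16 were all higher in microglia-like cells of the corticosterone library, Cxcl9 was seen there only after corticosterone, and Cxcl1 was close to nil in both. The part of free RNA in these differences was not tested. Levels are counts per 1000000 (CPM) of the UMIs summed over the cells of a class and library. Of the 5 members, 3 reached the minimum mean of 5 CPM, each in both libraries, and these 3 were past a log2 ratio of 1 upward, while 2.25% of 9678 genes at that level were (218 genes, against 197 or 2.04% past it downward). Cxcl10 was only just past it, at 1.02 (0.94 to 1.10). Pf4, the only other listed CXC ligand at that level, had a log2 ratio of −1.95. The members were chosen with earlier results of these data known, so this count is a description and no test of the family. The median over all 9678 genes was −0.01. Counted from the highest log2 ratio, Cxcl2 stood at place 61, Cxcl16 at 148 and Cxcl10 at 205. With DESeq2 size factors the median of all genes moved by 0.11 and the genes past the fold became 274 higher and 155 lower, with the same 3 members still past it.

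**Figure D1:**
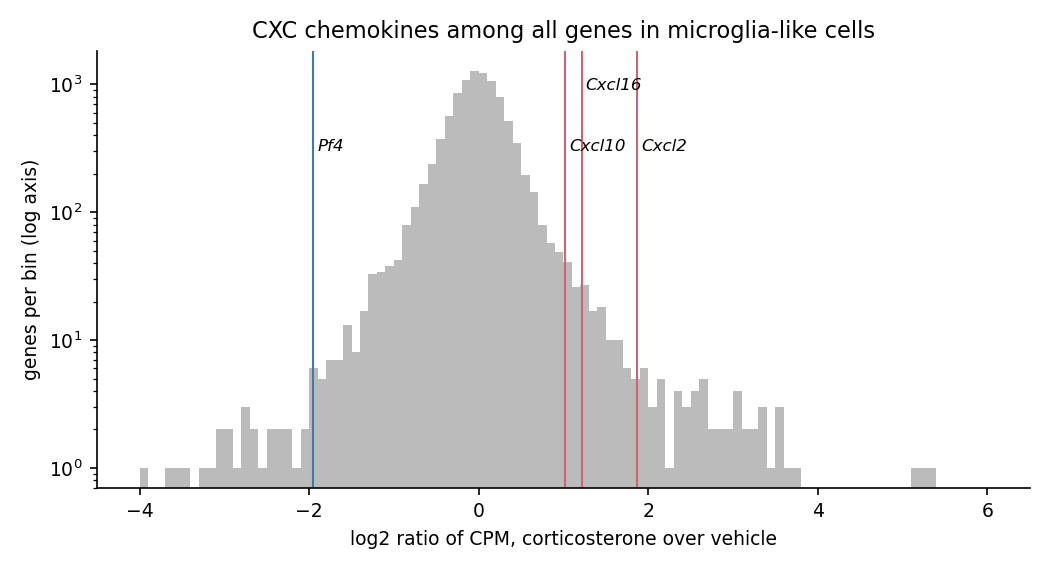
Histogram of the log2 ratio of CPM (corticosterone over vehicle, x axis) over the 9678 genes with a mean of at least 5 CPM in microglia-like cells, with genes per bin on a log axis; vertical lines mark members in red and the related ligand Pf4 in blue. Cxcl10, Cxcl16 and Cxcl2 lie in the upper tail and Pf4 in the lower.

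Of the ligands for Cxcr2, Cxcl1 was a transcript of the border-associated macrophage-like cells. These cells held 89.3% of the library's Cxcl1 UMIs in vehicle and 86.1% in corticosterone, from 22.0% and 8.02% of all UMIs. Microglia-like cells had 6 Cxcl1 UMIs in vehicle (0.185 CPM) and 17 in corticosterone (0.238 CPM), a log2 ratio of 0.37 (−1.04 to 2.00), so that no difference was detectable at this depth. In border-associated macrophage-like cells the vehicle library had 100 Cxcl1 UMIs, or 9.23 CPM (7.51 to 11.2). The corticosterone library had 186, or 27.3 CPM (23.5 to 31.5). The log2 ratio was 1.56 (1.20 to 1.93). A single corticosterone cell held 48 of those UMIs, 25.8% of them. Without the highest cell of each library the levels were 8.05 and 20.3 CPM. A Cxcl1 UMI was found in 2.80% (1.88 to 4.00) of these cells in vehicle and in 5.03% (3.62 to 6.79) in corticosterone. After each cell was thinned to 1000 UMIs these shares were 1.28% and 1.68%, with overlapping intervals, at nearly equal median depths of 6688 and 6686 UMIs. Neutrophil-like cells had 0 and 4 Cxcl1 UMIs, and an erythroid cell-like barcode held all 7 found in that class after corticosterone.

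Cxcl2 was spread over more cell classes. Its log2 ratio lay between 1.87 and 2.07 in microglia-like cells, border-associated macrophage-like cells and cluster 8. In neutrophil-like cells it was positive in one cluster and negative in the other; the difference between classes or clusters was not tested. Microglia-like cells of the vehicle library had 422 UMIs, or 12.99 CPM (11.8 to 14.3), and those of the corticosterone library 3388, or 47.4 CPM (45.9 to 49.1). The log2 ratio was 1.87 (1.72 to 2.02). In border-associated macrophage-like cells it was at 72.6 and 305 CPM, a log2 ratio of 2.07 (1.95 to 2.19), and with Cxcl1 it was 1 of 2 members past the fold upward there, where 2.85% of 9754 genes were, and none of the 4 members that reached 5 CPM was past it downward, against 1.84% of those genes. Cluster 8, unnamed and led by the MHC class II genes H2-Eb1, H2-Aa and H2-Ab1, had 170 and 668 CPM, a log2 ratio of 1.98 (1.76 to 2.20). The neutrophil-like class was made of clusters 6 and 7, and most of its vehicle cells were in cluster 7 (247 of 444) and most of its corticosterone cells in cluster 6 (272 of 397). In cluster 6, led by Clec4d and Cxcr2, Cxcl2 was at 403 CPM (368 to 441) without and 616 CPM (573 to 662) with corticosterone, a log2 ratio of 0.61 (0.45 to 0.78). In cluster 7, led by the granule genes Camp and Ngp, it was at 259 CPM (229 to 292) and 78.6 CPM (62.8 to 97.2), a log2 ratio of −1.72 (−2.09 to −1.36), at median depths of 2776 and 7478 UMIs. Pooled over both clusters the levels were 336 and 366 CPM, a log2 ratio of 0.12 (−0.02 to 0.26). Monocyte-like cells, 30 and 60 in number, had 99.9 and 147 CPM with overlapping intervals. None of the 3 members that reached 5 CPM in the pooled neutrophil-like class was past the fold there, against 2.54% of 9600 genes upward and 8.19% downward. Over all cells together the log2 ratio of Cxcl2 was 0.87.

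Thinned to 1000 UMIs, a Cxcl2 UMI was present in 1.02% (0.81 to 1.28) of vehicle microglia-like cells and 2.84% (2.58 to 3.11) of those from corticosterone, and unthinned in 2.60% and 6.995%. Erythroid cell-like barcodes, which also held microglia markers, gave 1.52% (0.18 to 5.37) and 3.45% (0.72 to 9.75) when thinned. Their median depth was 2499 and 3808 UMIs. That of microglia-like cells was 3194 and 4004. The microglia-like share was not above that class in either library. With microglia markers in both classes, the comparison cannot decide which cells express Cxcl2. The microglia-like share is not read as a share of expressing cells. Cells with many Cxcl2 UMIs were more frequent in the corticosterone library, which was also the deeper. At least 5 Cxcl2 UMIs were found in 19 of 7925 vehicle cells (0.240%) and in 191 of 15253 corticosterone cells (1.25%), and the highest cell held 13 and 93. In border-associated macrophage-like cells 4.73% and 13.3% held at least 5, and in the neutrophil-like clusters 21.8% and 16.2% (cluster 6) and 5.26% and 4.80% (cluster 7). In erythroid cell-like barcodes 0 of 161 and 3 of 89 did. Cxcl2 in these barcodes was at 10.3 CPM (3.34 to 24.0) and 63.7 CPM (42.3 to 92.0), from 5 and 28 UMIs. The log2 ratio was 2.63 (1.24 to 4.36). The microglia-like levels of 12.99 and 47.4 CPM lie within these intervals and are not shown to exceed that class. The part of free RNA in the Cxcl2 level and its difference was not tested.

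**Figure D2:**
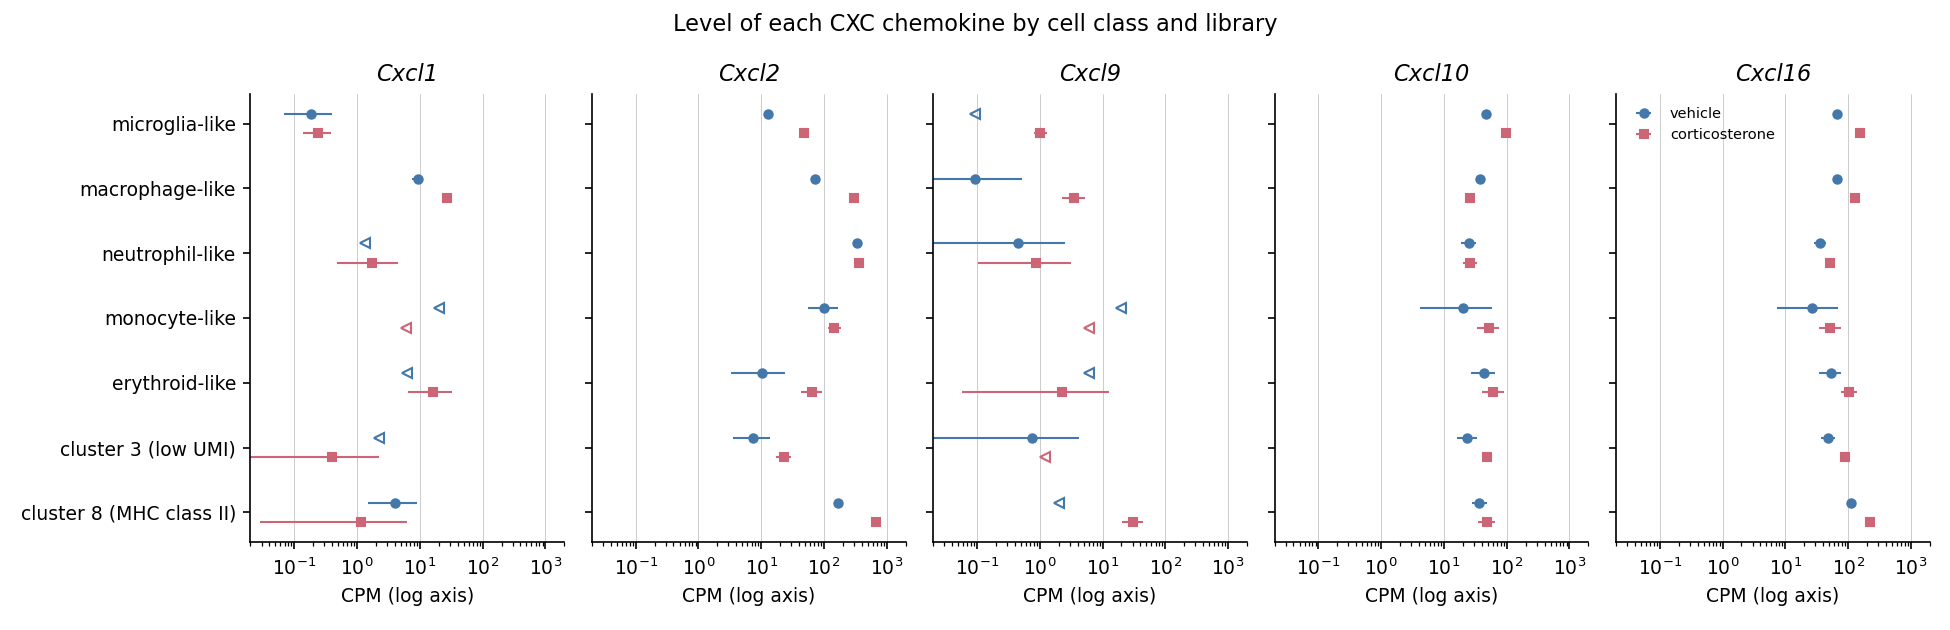
Level of each member in CPM (log axis) by cell class, vehicle as blue circles and corticosterone as red squares, 1 library each; bars are exact Poisson 95% intervals and open triangles stand at the level of 3 UMIs where a class had 0. Cxcl1 is highest in the macrophage-like class (border-associated), and Cxcl2 differs between libraries in the microglia-like and macrophage-like classes; its neutrophil-like values pool 2 clusters with opposite differences.

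Of the ligands for Cxcr3, Cxcl9 was rare. In microglia-like cells it had 0 UMIs in vehicle, with an upper limit of 0.114 CPM. There were 73 in corticosterone (1.02 CPM, 0.801 to 1.29), carried by 25 of 15253 cells. With 3 counts set in place of 0 in vehicle, the log2 ratio was 3.47 (1.86 to 5.78). Without the cluster led by interferon-induced genes it was 1.94 (0.22 to 4.31). In border-associated macrophage-like cells there was 1 UMI in vehicle and there were 24 in corticosterone, the latter in 3 cells, a log2 ratio of 5.25 (2.63 to 10.6). Cluster 8 had 0 and 27 UMIs, with the 27 in 2 cells. Over all cells there were 3 and 127 UMIs, a log2 ratio of 4.62 (3.04 to 6.91). The thinned share of microglia-like cells with Cxcl9 was 0 of 7330 in vehicle and 0.0594% (9 of 15159) in corticosterone. No erythroid cell-like barcode held it in the thinned data. Unthinned, that class had 0 UMIs in vehicle and 1 in corticosterone (2.27 CPM, 0.0576 to 12.7), too few for a comparison.

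Cxcl10 had a higher level after corticosterone but not a larger share of positive cells. Microglia-like cells of the vehicle library had 1545 UMIs, or 47.6 CPM (45.2 to 49.98), and those of the corticosterone library 6900, or 96.6 CPM (94.3 to 98.9). The log2 ratio was 1.02 (0.94 to 1.10). A Cxcl10 UMI was found in 9.01% (8.39 to 9.66) and 8.98% (8.53 to 9.44) of the cells, and after thinning in 3.48% (3.07 to 3.92) and 3.67% (3.38 to 3.99). Cells with at least 1 UMI held on average 2.16 in vehicle and 5.04 in corticosterone, unthinned. Cells with at least 10 were 13 (0.164%) and 120 (0.787%), cells with at least 20 were 4 and 61, and the highest cell held 28 and 192. The 1% of cells with the most Cxcl10 held 39.0% of its UMIs in vehicle and 65.5% in corticosterone. Erythroid cell-like barcodes gave a thinned share of 4.55% (1.69 to 9.63) and 1.15% (0.03 to 6.24), so in neither library was the microglia-like share clear of that class; 1 of 161 and 1 of 89 of these barcodes held at least 5 UMIs.

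The Cxcl10 difference was largest in the cells rich in interferon-induced transcripts. Sub-clusters of the microglia-like cells came from a further clustering in which every gene was centred per library. In sub-cluster 2, led by Ifi211, Ifit3 and Rsad2, all induced by interferons, Cxcl10 was at 174 CPM (146 to 207) in 174 vehicle cells and 892 CPM (865 to 919) in 902 corticosterone cells, a log2 ratio of 2.36. This sub-cluster held 8.54% of the Cxcl10 UMIs of vehicle microglia-like cells and 61.7% of those of corticosterone, in 2.20% and 5.91% of the cells. In sub-cluster 0, led by the immediate early genes Nr4a1 and Egr3 and holding most cells of both libraries, Cxcl10 was at 49.0 CPM (46.2 to 51.9) and 50.5 CPM (48.5 to 52.6). In sub-cluster 1, led by Cmss1, it was lower after corticosterone, at 23.6 CPM (20.1 to 27.5) and 13.7 CPM (12.1 to 15.5), and in sub-cluster 4, led by Spp1 and Lpl, it was at 127 and 37.6 CPM. In the clustering of all cells, without the cluster led by interferon-induced genes (45 vehicle and 684 corticosterone cells, an alternative chosen after seeing the data), the log2 ratio of Cxcl10 in microglia-like cells was −0.21 (−0.30 to −0.11), opposite in direction to the value with it. Cxcl9 followed the same cells, with 47 of its 73 corticosterone UMIs (64.4%) in sub-cluster 2.

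Outside microglia-like cells Cxcl10 gave other values. Border-associated macrophage-like cells had 36.8 CPM (33.3 to 40.6) without and 25.9 CPM (22.3 to 30.05) with corticosterone, and the log2 ratio was −0.51 (−0.77 to −0.25). Neutrophil-like cells had 24.9 and 26.3 CPM, a log2 ratio of 0.08 (−0.47 to 0.63). Set against microglia-like cells of the same library, the Cxcl10 level was 0.523 and 0.272 in neutrophil-like cells and 0.775 and 0.268 in border-associated macrophage-like cells, beside microglia-marker ratios of 0.550 and 0.349, and of 0.817 and 0.653. Each of these Cxcl10 ratios is at or below that of the microglia markers. Within the neutrophil-like class, cluster 6 had 0.643 and 0.360 beside marker ratios of 0.704 and 0.528. Cluster 7 had 0.384 and 0.172 beside 0.363 and 0.142, slightly above the markers. These ratios have no intervals. The values of both classes are not read as expression, and the part of free microglial RNA in them was not tested. Cluster 3, unnamed and low in UMIs, had 23.3 and 47.9 CPM, a log2 ratio of 1.04 (0.46 to 1.66).

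**Figure D3:**
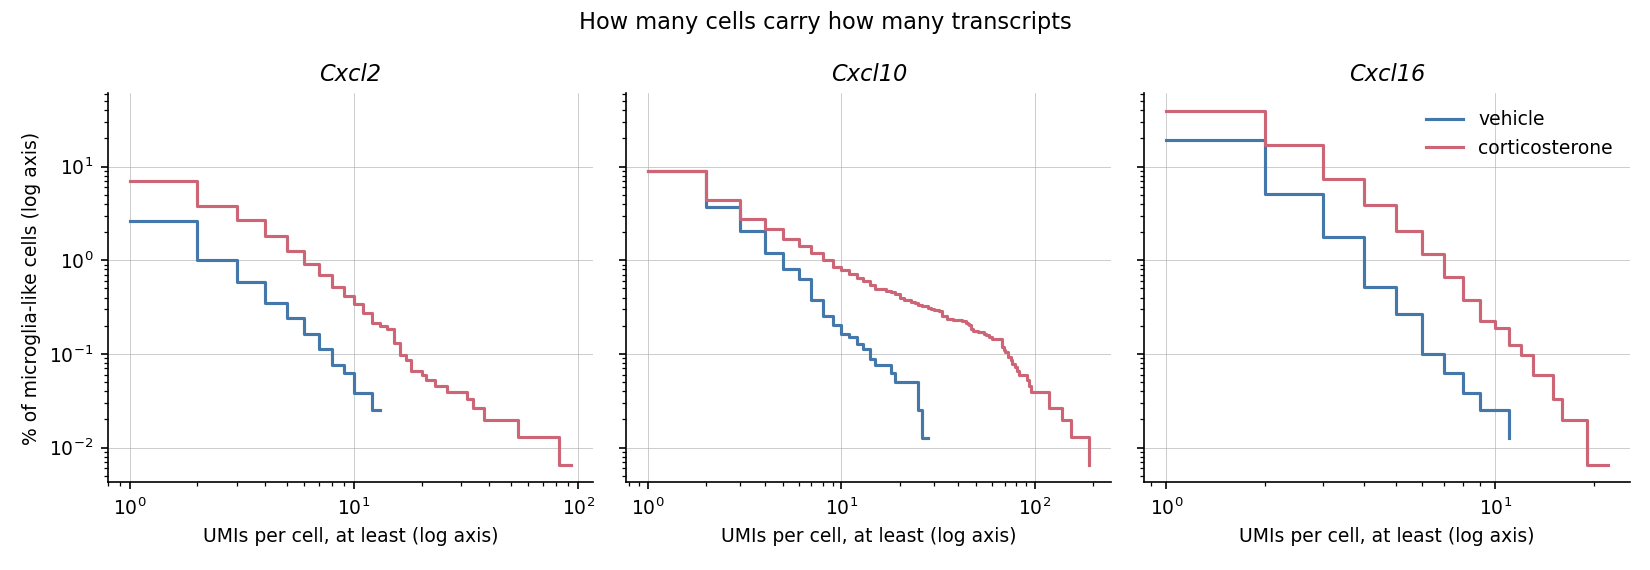
Share of microglia-like cells (log axis) with at least the number of UMIs on the x axis (log axis), for Cxcl2, Cxcl10 and Cxcl16; blue is vehicle and red is corticosterone, unthinned. The Cxcl10 curves start together near 9% and part above a few UMIs, while those of Cxcl2 and Cxcl16 are apart from 1 UMI onward.

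Cxcl16, the ligand of Cxcr6, was higher after corticosterone in each of the 6 sub-clusters of microglia-like cells. Microglia-like cells of the vehicle library had 2168 UMIs, or 66.7 CPM (63.9 to 69.6), and those of the corticosterone library 11046, or 155 CPM (152 to 158). The log2 ratio was 1.21 (1.15 to 1.28). A Cxcl16 UMI was present in 19.4% and 39.1% of the cells, and after thinning in 6.13% (5.59 to 6.70) and 13.1% (12.6 to 13.7). Positive cells held on average 1.41 and 1.85 UMIs, no cell held more than 11 in vehicle or 22 in corticosterone, and the 1% of cells with the most held 14.9% and 10.95% of the UMIs. The log2 ratio was 1.20 in sub-cluster 0, 1.20 in sub-cluster 1, 1.96 in sub-cluster 2, 1.06 in sub-cluster 3, which is led by the neutrophil granule genes Camp and Ngp, and 0.50 in sub-cluster 4. The small cycling sub-cluster 5 had 13 UMIs in 17 vehicle cells and 5 UMIs in only 3 corticosterone cells, a log2 ratio of 2.11 (0.27 to 3.69). In vehicle the sub-clusters 0 to 3 lay between 56.8 and 65.1 CPM, with overlapping intervals, and sub-cluster 4, rich in Spp1 and Lpl, was at 343 CPM (287 to 408); in corticosterone it was at 486 CPM (433 to 543) and the others lay between 119 and 252 CPM.

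The Cxcl16 difference was seen in other classes as well. Border-associated macrophage-like cells had 67.5 and 129 CPM, a log2 ratio of 0.94 (0.79 to 1.08), and cluster 8 had 113 and 227 CPM, a log2 ratio of 1.004 (0.70 to 1.31). Against microglia-like cells, the macrophage-like level was 1.01 and 0.835, beside microglia-marker ratios of 0.817 and 0.653. In cluster 8 it was 1.70 and 1.47, beside 0.803 and 0.655. Neutrophil-like cells, pooled, had 35.6 and 51.7 CPM, which is 0.533 and 0.335 of the microglia-like level and so at or below their ratio of microglia markers. In cluster 7 alone the ratios were 0.375 and 0.126, beside 0.363 and 0.142 for the markers. The neutrophil-like values are not read as expression. Erythroid cell-like barcodes had 53.5 and 105 CPM, a log2 ratio of 0.97 (0.24 to 1.72). Their thinned shares of 4.55% (1.69 to 9.63) and 13.8% (7.34 to 22.9) were no lower, within counting error, than those of microglia-like cells. The part of free microglial RNA in the Cxcl16 levels and differences of these classes, and in the share of Cxcl16-positive cells, was not tested.

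**Figure D4:**
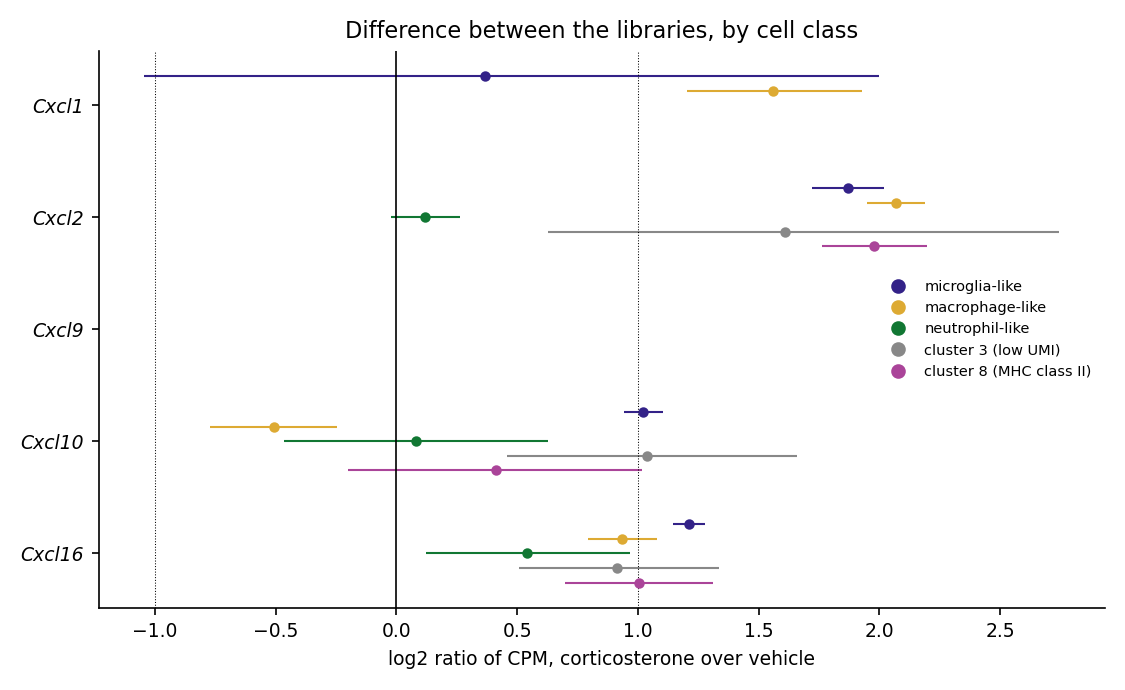
Log2 ratio of CPM, corticosterone over vehicle, for each member in 5 classes or clusters (colours), where both libraries had at least 5 UMIs; bars are 95% intervals for the ratio of 2 Poisson counts, and dotted lines mark a log2 ratio of 1 either way. Cxcl9 has no point because vehicle had fewer UMIs than that, and Cxcl10 is the member with values on both sides of 0.

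Cxcl2 varied among the microglia-like sub-clusters in its own way. It was at 14.4 and 56.4 CPM in sub-cluster 0, a log2 ratio of 1.97 (1.81 to 2.14), and at 6.29 and 11.8 CPM in sub-cluster 1, a log2 ratio of 0.90 (0.43 to 1.41). The highest level was in sub-cluster 4, at 47.5 CPM (28.2 to 75.1) and 462 CPM (411 to 518), a log2 ratio of 3.28 (2.60 to 4.06). In sub-cluster 3, with the granule genes, it was 26.2 and 26.7 CPM, a log2 ratio of 0.03 (−0.97 to 1.03). In the interferon-rich sub-cluster 2 there were 4 UMIs in vehicle and 251 in corticosterone. Neutrophil markers, of which neutrophil-like cells hold much, summed to 906 CPM in vehicle microglia-like cells and 687 CPM in those from corticosterone, with none of the 9 at 0; without sub-cluster 3 the direction of the Cxcl2 difference was the same. Markers of border-associated macrophages summed to 289 and 320 CPM, with none of the 9 at 0; their part in the Cxcl2 difference was not tested.

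**Figure D5:**
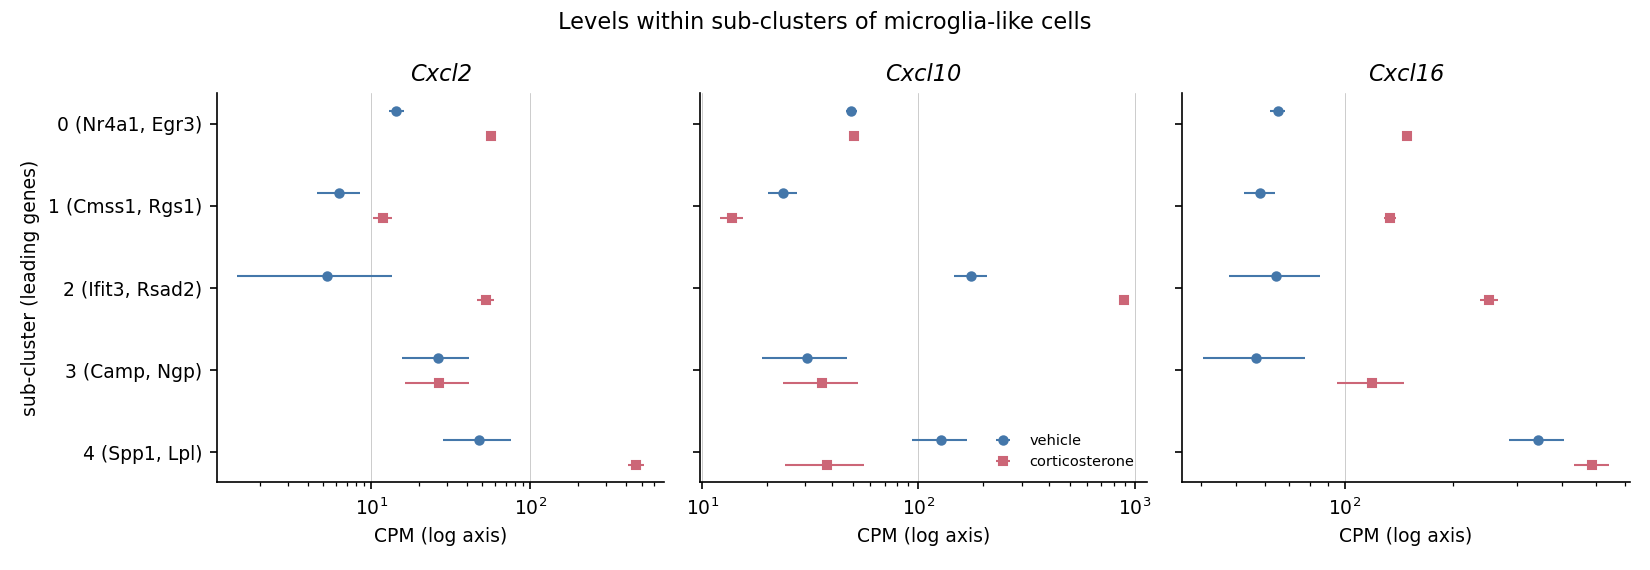
Level in CPM (log axis) of Cxcl2, Cxcl10 and Cxcl16 in 5 sub-clusters of microglia-like cells, named by number and 2 leading genes; blue circles are vehicle, red squares corticosterone, and bars are exact Poisson 95% intervals. Cxcl10 differs most in sub-cluster 2, Cxcl2 is highest in sub-cluster 4, and Cxcl16 differs in each.

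Within single microglia-like cells thinned to 1000 UMIs, Cxcl9 and Cxcl10 occurred together. Of 9 corticosterone cells with Cxcl9, 5 also had Cxcl10 (55.6%, 21.2 to 86.3), against 3.64% of cells without Cxcl9. Of 557 corticosterone cells with Cxcl10, 21.0% (17.7 to 24.6) had Cxcl16, against 12.8% (12.3 to 13.4) of cells without Cxcl10, and in vehicle these shares were 8.24% (5.17 to 12.3) and 6.05%. Of the same corticosterone cells, 4.49% (2.93 to 6.55) had Cxcl2, against 2.77% (2.51 to 3.05). None of the 4 corticosterone cells with Cxcl1 held another member.

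The other CXC ligands were mostly near the limit of detection in microglia-like cells. Of 10 listed, Pf4, a platelet and macrophage chemokine and a leading gene of the border-associated macrophage-like cluster, was the only one with a mean of at least 5 CPM. Its level was 28.0 CPM without and 7.25 CPM with corticosterone, a log2 ratio of −1.95 (−2.11 to −1.79). Erythroid cell-like barcodes, which also held microglia markers, had 39.1 CPM (23.5 to 61.1) and 97.8 CPM. The microglia-like level of Pf4 is not read as expression. In border-associated macrophage-like cells Pf4 was at 1256 and 2105 CPM, a log2 ratio of 0.74. Cxcl3, a further ligand of Cxcr2, had 1 and 15 UMIs in microglia-like cells, Cxcl5 and Cxcl15 had none, and Cxcl11 was not among the features used here.

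Receptors of these ligands were sparse in microglia-like cells, where none of 8 reached a mean of 5 CPM. Cxcr3, the receptor of Cxcl9 and Cxcl10, was at 3.42 and 2.95 CPM, and Ackr3, a scavenging receptor, at 5.72 and 2.59 CPM. In the pooled neutrophil-like class 4 of 8 reached that level, with 1 past the fold upward and 1 downward. There Cxcr2, the receptor of Cxcl1 and Cxcl2, was at 331 and 589 CPM, a log2 ratio of 0.83 (0.70 to 0.96); within clusters it was 0.94 (cluster 6) and 0.41 (cluster 7). Cxcr4, the receptor of Cxcl12, was at 73.3 and 204 CPM, a log2 ratio of 1.48 (1.22 to 1.74), and within clusters of 1.70 and 1.001. Cxcr3 was at 9.33 and 2.16 CPM, a log2 ratio of −2.11 (−3.88 to −0.67).

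The listed genes of NF-kB signalling and mRNA decay that reached 5 CPM each had a log2 ratio under that of Cxcl2. The list leaves out the genes of interleukin-1 and tumour necrosis factor. In microglia-like cells the log2 ratio was 3.36 for Il1b, above that of Cxcl2, 0.67 for Il1a and 0.51 for Tnf. Of 16 genes of NF-kB signalling and mRNA decay, 14 reached 5 CPM in microglia-like cells and 1 was past the fold upward, none downward, with a median log2 ratio of −0.03. The one was Tlr2, a receptor for bacterial lipoproteins, at 117 and 262 CPM, a log2 ratio of 1.17 (1.12 to 1.22). The lowest was Zfp36l1, which promotes decay of mRNAs with AU-rich elements, at 941 and 550 CPM, a log2 ratio of −0.78 (−0.80 to −0.75). Il1r1, the receptor of interleukin-1, was under the minimum at 1.35 and 5.15 CPM, a log2 ratio of 1.93 (1.47 to 2.41). In border-associated macrophage-like cells none of the 14 was past the fold, and the median was 0.01. Immediate early genes were high in both libraries of microglia-like cells: Fos was at 6678 and 5881 CPM and Jun at 9654 and 8071 CPM. The part of the dissociation in the level of Cxcl2 was not tested.

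Genes of the interferon arm were higher in part. All 14 listed reached 5 CPM in microglia-like cells, 3 were past the fold upward and none downward, and the median log2 ratio was 0.33. Irf7, an interferon-induced factor for interferon genes, was at 6.46 and 45.6 CPM, a log2 ratio of 2.82 (2.62 to 3.03). Stat2, which carries interferon signals to the nucleus, was at 27.1 and 67.1 CPM, a log2 ratio of 1.31. The lowest was Irf3, at 61.3 and 58.8 CPM, a log2 ratio of −0.06. Irf7 and Stat2 were also past the fold in border-associated macrophage-like cells, at log2 ratios of 2.13 and 1.05. The gene of interferon-gamma, Ifng, had 0 UMIs in microglia-like cells of either library.

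Of 5 genes for the release of Cxcl16 from the membrane, 4 reached 5 CPM in microglia-like cells and none was past the fold, with a median log2 ratio of −0.02. The proteases Adam10, at 246 and 241 CPM, and Adam17, at 183 and 180 CPM, were nearly level. Rhbdf1 and Rhbdf2, which escort Adam17 to the surface, were the lowest and the highest at log2 ratios of −0.32 and 0.55.

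Across 13 profiles, each a class or unnamed cluster of at least 50 cells in 1 library, Pearson's r of log2(CPM + 1) was taken between each member and 8731 genes as a description. The genes most like Cxcl1 were Apod (r = 0.92), Adam33 (0.91) and Cd163 (0.88). Those most like Cxcl2 were Lilrb4a (0.92), Lilr4b (0.91) and Dok2 (0.91). For Cxcl10 they were Tifab (0.83), Csk (0.80) and Sowahc (0.80), for Cxcl9 they included Alkbh7 (0.83) and Mthfsl (0.82), and for Cxcl16 they were Impdh2 (0.98), Tmem176a (0.97) and Rtcb (0.97). Among the members r was 0.07 between Cxcl9 and Cxcl10, 0.36 between Cxcl1 and Cxcl2 and 0.68 between Cxcl9 and Cxcl16. Cxcl9 was at 30.8 CPM in cluster 8 of corticosterone, from 2 cells, and at no more than 3.52 CPM in any other profile. Profiles of a library share its depth and its free RNA.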

How the data were processed

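The authors deposited the UMI counts of every gene in every barcode, not normalized, from libraries built with a Singleron GEXSCOPE kit, per the labels' protocols. The submitters' processing notes name bcl2fastq 2.19 and the build GRCm38; the aligner, the counter and the cell-calling rule are not given in the sources used here. Both libraries list the same 32589 features, with 52 repeats of a symbol, of which only the earliest row entered.

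Barcodes with at least 500 UMIs, 300 genes and at most 20% mitochondrial UMIs were kept, which removed 55 vehicle and 230 corticosterone barcodes. Scrublet in scanpy 1.11.5 marked 0 cells in each library, so it was taken not to have worked and no cell was removed as a doublet. Counts scaled to 10000 per cell, 2000 variable genes, 30 components and 15 neighbours entered Leiden clustering at resolution 0.5. A cluster was called X-like from at least 3 markers detected in 10% of its cells at 2 times their level elsewhere, and microglia-like otherwise where microglia markers reached 0.5 of their overall level. Clusters 3 and 8 met the latter rule, at 0.725 and 0.794, but were left unnamed. Cluster 3 had a median depth under 33.3% of the library median and no microglia marker among its 10 leading genes. In cluster 8 these leading genes held a monocyte marker (Ccr2) and a dendritic cell marker (Cd209a), and no microglia marker. These thresholds were set after the data were seen. CPM are counts per 1000000 UMIs of a class and library, and a gene was past the fold at a log2 ratio of 1 either way with a mean of at least 5 CPM. Thinning drew 1000 UMIs per cell without replacement and left out 595 vehicle and 94 corticosterone microglia-like cells. Intervals are exact Poisson for counts and their ratios and Clopper-Pearson for shares. With 1 library per group nothing was tested. Named genes were the 5 members, in each gene list the highest, the lowest and those past the fold, and 3 genes most like each member, of which some are not reported here; others named were chosen after their values were seen. The members and lists were chosen with earlier results of these data known. Scaling with edgeR 4.0.16 and DESeq2 1.42.0, cell filters, resolutions and thinning depths were the alternatives. The interval code was tested on simulated data.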

Additional observations from a re-analysis of the deposited data

Results flagged for a closer look

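The Cxcl10 values had opposite signs in different classes. The log2 ratio of corticosterone over vehicle was −0.51 in border-associated macrophage-like cells and 1.02 in microglia-like cells. Against cluster 3, the unnamed cluster of low-UMI barcodes, the values were −0.51 and 1.04. The Cxcl10 level of border-associated macrophage-like cells was 0.775 and 0.268 of that of microglia-like cells, at or below the ratio of microglia markers (0.817 and 0.653). It is not read as expression, and whether −0.51 is a change in these cells was not tested. The microglia-like level by which these ratios divide was 47.6 CPM in vehicle and 96.6 CPM in corticosterone. The part of free microglial RNA was not tested. The intervals do not overlap, but they cover counting error in 1 library per group, and the difference between the classes was not tested.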

How the results depend on the processing

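No paired analysis was possible because each group has 1 library, and no library could be left out. Over the main setting and 10 alternatives the log2 ratio in microglia-like cells ran from 1.15 to 1.32 for Cxcl16 and from 0.87 to 1.99 for Cxcl2. It ran from 0.16 to 1.11 for Cxcl1 and from −0.21 to 1.13 for Cxcl10. For Cxcl9, with 3 counts in place of 0 over the 10 settings without vehicle UMIs, it ran from 1.24 to 3.58. The Cxcl9 ratio over all cells was 4.62. Cxcl2 was 0.87 over all cells, which include neutrophil-like cells. Cxcl10 was −0.21 without the interferon-led cluster, 1.11 with edgeR's TMM factors and 1.13 with DESeq2's size factors, and Cxcl16 was 1.30 and 1.32 with these. The value for Cxcl9 against 3 counts was 1.24 (−0.49 to 3.62) with a rule per cell, which left 23 UMIs. The other 43 values kept their direction and moved by less than counting error.

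Shares of microglia-like cells with a UMI moved with depth. Thinned to 500 UMIs, they were 0.631% in vehicle and 1.63% in corticosterone for Cxcl2, 1.89% and 2.17% for Cxcl10, 3.39% and 7.22% for Cxcl16, and in corticosterone 0.0131% for Cxcl9 and 0% for Cxcl1. Thinned to 2000, they were 1.83% and 4.51% for Cxcl2, 6.12% and 5.53% for Cxcl10, and 11.4% and 22.6% for Cxcl16. Unthinned, they were 2.60% and 6.995%, 9.01% and 8.98%, and 19.4% and 39.1%, with 0.164% for Cxcl9 and 0.0918% for Cxcl1 in corticosterone. At resolution 0.3 the monocyte-like class took in other cells and had 488 CPM of Cxcl2 and 20.0 CPM of Cxcl9 in corticosterone, and 105 and 161 CPM of Cxcl16 in vehicle and corticosterone. Genes past the fold were 894 higher and 2621 lower of 17990 with at least 1 UMI in each library, and 119 and 86 of 6603 with a mean of at least 20 CPM.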

Other observations

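Ifnb1, the gene of interferon-beta, was singled out after its values were seen. It had 27 UMIs in vehicle microglia-like cells and 273 in those from corticosterone (0.831 and 3.82 CPM), a log2 ratio of 2.20 (1.63 to 2.83). These were carried by 10 and 60 cells. The 60 corticosterone cells held 19.8% of the Cxcl10 UMIs of their microglia-like class, at 3159 CPM (2994 to 3331), and 55.0% (41.6 to 67.9) of them had a Cxcl10 UMI. In the other corticosterone cells Cxcl10 was at 77.9 CPM and 8.79% were positive. In vehicle, Cxcl10 was at 665 CPM (498 to 869) in the 10 cells with Ifnb1, all of it from 2 of them (20.0%, 2.52 to 55.6), and at 46.0 CPM in the rest. The median depth of the cells with Ifnb1 was 4731 UMIs in vehicle and 5459.5 in corticosterone, against 3192 and 4000 in the others. The part of depth in these values was not tested.

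Other secreted signals chosen after their values were seen gave further differences in microglia-like cells. Il1b was at 28.3 CPM without and 290 CPM with corticosterone, a log2 ratio of 3.36, and Ccl2 at 1567 and 2837 CPM, a log2 ratio of 0.86. Il1a was at 550 and 873 CPM, a log2 ratio of 0.67, and Tnf at 448 and 637 CPM, a log2 ratio of 0.51.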
